A study of Mus musculus with 7 samples.

Results

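Small noncoding RNA genes were followed in 7 ovarian poly(A) RNA-seq libraries from mice. The genes were those that the GENCODE M21 annotation of mm10 types as snoRNA, snRNA, scaRNA, misc_RNA or ribozyme and that held a summed count of at least 20 over the 7 libraries, so they were selected on their own measured counts. Of 3525 genes of the 5 types in the count tables, 145 met the rule, out of 55487 gene identifiers in all. They were 94 snoRNAs, 24 snRNAs, 12 scaRNAs and 15 misc_RNAs. None of the 22 ribozyme genes reached the threshold.

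All mice were C57BL/6J females whose ovaries were taken in diestrus at postnatal day 60. The 3 CNTR libraries came from offspring (generation 1) of dams that received PBS. The 4 PAMH F3 libraries came from generation 3 of a line whose F0 dams received human recombinant anti-Müllerian hormone (AMH) between E16.5 and E18.5 of gestation, with a daily dose of 0.12 mg/kg. F2 and F3 animals had no further treatment, and PAMH F3 mice were bred from PAMH F2 females and unrelated PAMH F2 males. The labels give the injections as subcutaneous and the study's methods as intraperitoneal. Group and generation cannot be told apart. The labels list the libraries as separate samples without naming litters, so that p values measure the spread between these 7 samples.

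Most small nuclear and nucleolar RNAs carry no poly(A) tail. Small nucleolar RNAs (snoRNAs) are typically, but not always, cut out of introns of longer genes. They typically guide the chemical modification of ribosomal RNA, 2'-O-methylation for the box C/D class and pseudouridylation for the box H/ACA class. Small Cajal body RNAs (scaRNAs) guide the same modifications on spliceosomal RNAs, small nuclear RNAs (snRNAs) build the spliceosome, and the misc_RNA type gathers RNAs such as 7SK, which holds the transcription elongation factor P-TEFb inactive. The libraries were made from RNA bound to poly-T beads, so a count on these genes can come from the small RNA itself, from an unspliced host transcript or from another transcript over the same bases, and reads of 50 bases do not tell these apart.

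The sequences of 11 genes that the results turn on are shown first, as DNA letters of the mm10 annotation, 5′ to 3′. Capitals mark the boxes found by letter in snoRNAs. The C box was searched as NTGATGA in the first 30 bases and the D box as CTGA in the last 30, and the H box was searched as ANANNA in the middle part with ACA near the 3′ end, on the strand of the gene. Rn7sk (7SK RNA) is shown because its counts varied most between libraries relative to counting error, and its first 300 of 331 bases are given (mm10 chr9:78175303-78175633, minus strand).

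Rn7sk: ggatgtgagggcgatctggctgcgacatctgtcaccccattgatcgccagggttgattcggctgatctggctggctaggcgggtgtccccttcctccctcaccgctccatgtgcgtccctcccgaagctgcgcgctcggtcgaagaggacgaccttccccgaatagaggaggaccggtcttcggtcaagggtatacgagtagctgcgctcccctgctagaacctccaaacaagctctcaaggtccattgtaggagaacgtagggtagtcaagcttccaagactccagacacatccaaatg

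The next 2 genes carried the most counts per length among snoRNAs, Snora31 (chr14:75847905-75848034, plus strand) in an intron of Tpt1 and Snord123 (chr15:32241853-32241923, minus strand) in an intron of Snhg18.

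Snora31: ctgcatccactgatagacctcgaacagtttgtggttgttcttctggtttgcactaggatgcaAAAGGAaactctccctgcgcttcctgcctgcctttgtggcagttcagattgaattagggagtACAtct

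Snord123: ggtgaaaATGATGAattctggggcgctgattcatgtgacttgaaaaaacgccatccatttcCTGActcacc

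Gm22270 (chr5:107905177-107905308) and Gm26387 (chr5:107907345-107907476), both on the plus strand in introns of Rpl5, and Snora73b (chr4:132352322-132352526) and Snora73a (chr4:132352775-132352979), both on the minus strand in Rcc1, are pairs of near copies with unlike counts. The Rpl5 pair was identical at 125 of 132 aligned positions (94.7%) and the Rcc1 pair at 198 of 205 (96.6%).

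Gm22270: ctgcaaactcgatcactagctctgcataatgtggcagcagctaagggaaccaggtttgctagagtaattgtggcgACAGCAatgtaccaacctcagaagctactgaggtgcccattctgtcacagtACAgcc

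Gm26387: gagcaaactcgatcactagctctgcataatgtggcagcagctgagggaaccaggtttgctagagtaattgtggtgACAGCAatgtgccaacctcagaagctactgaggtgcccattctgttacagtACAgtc

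Snora73b: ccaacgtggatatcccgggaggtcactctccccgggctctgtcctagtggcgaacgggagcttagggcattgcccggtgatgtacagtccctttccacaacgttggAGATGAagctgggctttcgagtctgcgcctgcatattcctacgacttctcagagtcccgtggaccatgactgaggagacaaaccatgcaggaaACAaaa

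Snora73a: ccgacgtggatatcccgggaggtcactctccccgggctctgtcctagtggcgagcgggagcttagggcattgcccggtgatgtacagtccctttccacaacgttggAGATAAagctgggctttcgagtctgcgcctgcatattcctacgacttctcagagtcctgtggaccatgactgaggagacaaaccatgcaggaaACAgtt

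Scarna9 (chr9:15326264-15326333, minus strand), which the annotation types as a snoRNA in an intron of Cep295, Gm23458 (chr5:123360832-123361000, plus strand), an snRNA gene in an intron of Bcl7a, Snora57 (chr19:8888538-8888685, minus strand) and Gm27544 (chr10:92071661-92071815, minus strand), a misc_RNA gene over part of an Rmst exon, are shown for the group comparison and the spread between libraries.

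Scarna9: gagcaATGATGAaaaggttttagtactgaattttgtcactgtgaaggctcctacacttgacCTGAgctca

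Gm23458: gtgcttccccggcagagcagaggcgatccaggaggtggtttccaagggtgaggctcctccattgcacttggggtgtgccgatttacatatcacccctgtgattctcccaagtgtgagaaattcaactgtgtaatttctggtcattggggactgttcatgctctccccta

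Snora57: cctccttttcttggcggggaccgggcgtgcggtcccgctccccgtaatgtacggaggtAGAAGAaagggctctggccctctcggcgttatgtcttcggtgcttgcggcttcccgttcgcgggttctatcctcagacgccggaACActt

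Gm27544: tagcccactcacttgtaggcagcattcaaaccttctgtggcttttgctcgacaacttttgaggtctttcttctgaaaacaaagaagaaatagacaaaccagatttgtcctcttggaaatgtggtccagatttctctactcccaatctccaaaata

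Among the 94 snoRNAs with enough counts, 29 (30.9%) held a C and a D box by these letters, against 312 of all 1507 annotated snoRNAs (20.7%). An H box with ACA was found in 37 (39.4%), against 547 (36.3%). Neither pair was found in 28 (29.8%), against 648 (43.0%), and no gene held both. Snord35a, Snord34 and Snord72 belong to the C/D class by name and were among those whose letters did not match both boxes.

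The libraries held between 32158174 and 35485021 gene counts. The 145 genes took 17127 counts in all, which was 91.5% of the 18727 counts on the 5 types, and between 2276 and 2973 counts in a library. Alignments set aside as not unique were 37.7% to 40.7% of all. Of 3525 genes, 3006 were at 0 in every library. Each of the 16 granulosa, theca and luteal, oocyte and oviduct markers, and each of the 3 adipocyte markers, was above 1 CPM (counts scaled to library size) in every library, and the oviduct markers summed to between 2502 and 6320 CPM. In bulk ovary, fewer cells of a type and less RNA per cell cannot be told apart.

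The snoRNAs held most of the signal. Levels are given as CPM after normalization by the trimmed mean of M values (TMM) over all genes. Summed over its genes, the snoRNA type was at 50.8, 57.7 and 49.4 CPM in the CNTR libraries and at 49.3, 48.6, 47.6 and 54.5 CPM in the PAMH F3 libraries, which made 70.1% of the summed level of the 145 genes. The groups overlapped, with means of 52.6 ± 4.44 CPM (SD, n = 3) and 50.01 ± 3.09 CPM (SD, n = 4). The snRNAs summed to 4.71 ± 0.278 CPM in CNTR and 5.11 ± 0.605 CPM in PAMH F3. The scaRNAs summed to 4.10 ± 0.425 CPM in CNTR and 3.23 ± 0.609 CPM in PAMH F3, and without Gm22009, which made 47.6% of that type, the sums were 1.89 ± 0.163 and 1.88 ± 0.344 CPM.

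The misc_RNA type differed most in the ratio of group means, and one gene carried it. Its sum was 10.8, 23.3 and 14.9 CPM in CNTR and 10.6, 11.6, 12.5 and 9.22 CPM in PAMH F3, with a ratio of PAMH F3 to CNTR of 0.674. Rn7sk made 46.3% of the type. Without it the ratio was 1.10, from 6.75 ± 0.233 CPM in CNTR (SD, n = 3) and 7.40 ± 1.48 CPM in PAMH F3 (SD, n = 4). No test was run on these sums, since the genes were chosen on the same counts.

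**Figure D1:**
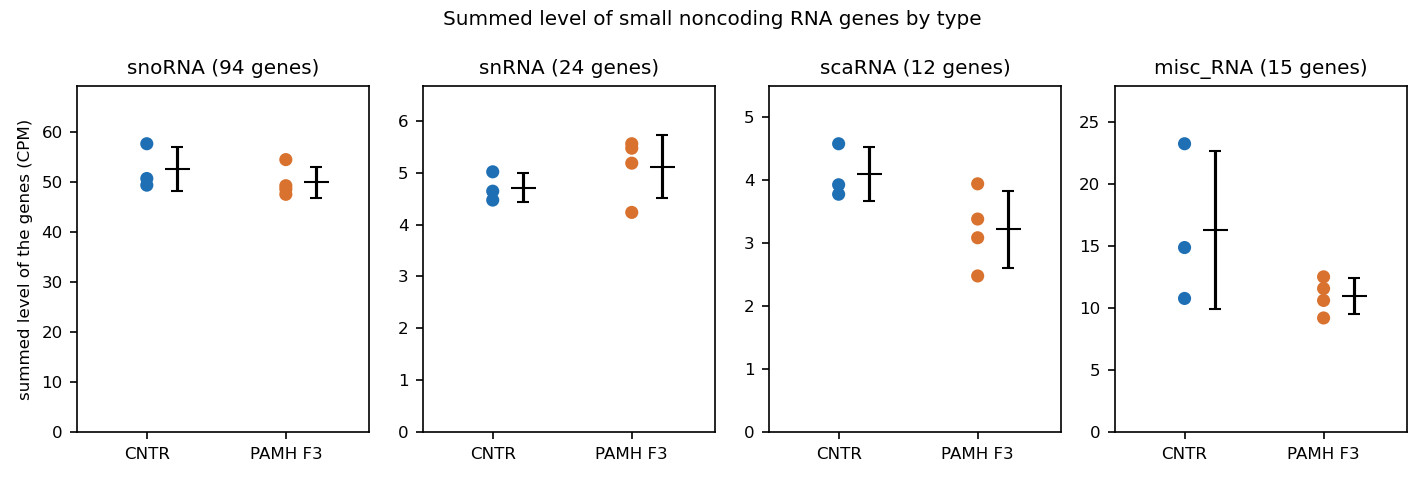
Summed CPM of the 145 genes by gene type (y axis from 0, a scale of its own for each type) in 3 CNTR and 4 PAMH F3 libraries. Points are libraries and the bars beside them are means with SD. CNTR 2 (23.3 CPM) and CNTR 3 (14.9 CPM) stand above all PAMH F3 libraries in misc_RNA, while CNTR 1 lies among them, and the ranges of the groups overlap in each of the 4 types.

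A few genes held much of the count. Rn7sk took 8.37% of the counts on the 145 genes, the 5 highest took 25.4%, the 12 highest 42.9% and the 50 highest 79.1%. At the other end, 73 genes had a summed count under 50. The threshold cut through an even tail, with 5 genes at each summed count from 18 to 21. Just inside, Gm22865, Gm22952 and Gm23442 had 20 counts each, and just outside, Gm22362, Gm23037 and Gm23894 had 19 each.

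Levels of different genes are compared per length, as CPM per kb, dividing CPM by the gene length plus 49 bases, the number of places at which a read of 50 bases touches the gene. The median level was 1.59 CPM per kb for snoRNAs (range 0.298 to 20.03), 0.761 for snRNAs (0.426 to 5.23), 0.724 for scaRNAs (0.212 to 4.37) and 0.909 for misc_RNAs (0.254 to 18.6). The genes ran from 63 to 414 bases in length. By this measure Snord123 (20.03 CPM per kb), Snora31 (19.2), Gm27544 (18.6), Rn7sk (16.2) and Gm22270 (15.2) stood at the top.

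In the most highly counted snoRNAs the groups overlapped. Snora31, an H/ACA snoRNA, was at 3.22, 4.32 and 3.68 CPM in CNTR and at 2.58, 3.55, 3.12 and 3.54 CPM in PAMH F3. The ranges of both groups overlapped, and the two-sided exact permutation p was 0.229. Snord123, a C/D snoRNA, was at 2.35, 2.16 and 2.23 CPM in CNTR and at 2.30, 2.23, 2.65 and 2.92 CPM in PAMH F3, again with overlap (exact permutation test, two-sided p = 0.229). Gm22270 was at 2.53 ± 0.148 CPM in CNTR and 2.92 ± 0.536 CPM in PAMH F3, and Snora73b, an RNA that takes part in ribosomal RNA processing, was at 2.35 ± 0.537 and 2.03 ± 0.276 CPM. With the smaller tail doubled, the 35 divisions of 7 libraries into 3 and 4 set the smallest two-sided p of this test at 0.0571. No gene could therefore reach 0.05 in it.

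Further snoRNAs showed the same overlap of groups. Gm25835 in Eif4a1 had 82, 90 and 70 counts in CNTR and 80, 56, 74 and 95 in PAMH F3. Snord72 in Rpl37, a gene of the large ribosomal subunit, had 67, 71 and 55 against 83, 66, 61 and 49. Snord104, which lay in no gene on its strand, had 64, 72 and 37 counts against 34, 39, 39 and 49, with CNTR 1 and CNTR 2 above all other libraries and CNTR 3 among the PAMH F3 values.

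The leading genes of the smaller types had fewer counts. Gm23027, the snRNA gene with the highest CPM, had 38, 42 and 35 counts in CNTR and 40, 30, 49 and 22 in PAMH F3. After Gm22009, the scaRNA gene Gm25492 in an intron of Bud23, a methyltransferase gene for ribosomal RNA, had 7, 12 and 5 counts against 10, 5, 11 and 16, and Gm23119 had 14, 14 and 6 against 6, 8, 7 and 10. Both ranges overlapped between groups. In the misc_RNA type, Gm27544 had 133, 116 and 81 counts against 137, 139, 218 and 75, so that both its highest and its lowest library were PAMH F3. Gm25082, with 59 of its 255 bases on an exon of Clk4, a kinase gene, had 23, 45 and 32 counts against 35, 28, 19 and 18.

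Among the genes with a mean count of 20 or more, the 6 with the largest SD of log2 CPM were Rn7sk (0.880), Snora57 (0.652), Gm23547 (0.584), Gm22009 (0.548), Gm22571 (0.516) and Gm27544 (0.460). Gm23547, which has 155 of its 271 bases on exons of Phb2, a prohibitin gene, had 30, 27 and 30 counts in CNTR and 29, 22, 12 and 45 in PAMH F3. Gm22571 in Rpl4 had 25, 15 and 24 counts against 27, 28, 19 and 9. In both, the CNTR values lay inside the PAMH F3 range. Snord35a, also in a ribosomal protein gene (Rpl13a), was the steadiest of the 12 highest, with 49, 59 and 49 counts against 47, 44, 49 and 50 and an SD of 0.146.

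Well-known small RNAs were mostly at or near 0. Rpph1, the RNA of RNase P, had 7 counts in all, 5 of them in CNTR 2. Vaultrc5 (vault RNA) also had 7 counts, the Y RNAs Rny3 and Rny1 had 5 and 3, and Snord118 (U8), Rnu12 (U12) and Scarna10 had 1 each. Terc (telomerase RNA), Rnu11 (U11), Rn7s1 and Rn7s2 (7SL RNA) and Rmrp (the RNA of RNase MRP) were at 0 in every library, which allows up to 3 counts each and says nothing of RNA that poly-T beads do not bind. All 50-base stretches of Rn7s1 and Rn7s2 recur in another annotated gene of these types, so no read inside them aligns to 1 place. Rmrp is annotated under 2 identifiers that overlap by 271 bases on the same strand, and the counting mode used by the authors sets aside a read that touches 2 genes. For Terc no 50-base stretch recurs in another gene of these types. Among the genes above the threshold, Scarna13 had 52 counts, Scarna6 27, Scarna2 23, Snora73a 23 and Snord17 20.

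Most of the genes lay inside longer genes on their own strand. In the M21 annotation, 111 of the 145 lay in an intron of such a gene, 17 overlapped an exon of another gene on their strand and 17 lay outside. A host gene could be named for 127, and these had 107 different hosts. Of the 89 snoRNAs with a host, 26 lay in ribosomal protein genes and 6 in genes of translation factors, such as Eif4a1, which encodes an RNA helicase that unwinds messenger RNA for translation. A further 10 lay in genes that the annotation does not list as protein-coding, and 47 in other protein-coding genes. None of the 38 snRNA, scaRNA and misc_RNA genes with a host lay in a ribosomal protein or translation factor gene. For the 17 genes over an exon, the exon positions are those of M21. Gm23201 lies with all of its 89 bases on Zfas1 exons there and still had 310 counts, and the Ensembl release behind the deposited counts is not given in the sources used here.

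Per kb, the small RNA genes were mostly below their hosts. The median of the ratio of their level to the host's was 7.62% over the 127 genes, 6.30% for snoRNAs and 10.6% for snRNAs. In ribosomal protein genes the median ratio was 22.7% (26 genes) and in translation factor genes 1.96% (6 genes). In 14 genes the level per kb was above the host's, among them Gm27544 in Rmst (1213%), Snora31 in Tpt1 (624%), Snord42a in Rpl23a (300.2%) and Gm23301 in Rpl17 (229%). Several of those hosts had low counts for genes of their kind, with 7.47 CPM for Tpt1, 9.00 CPM for Rpl17 and 2.37 CPM for Rpl23a. Only uniquely aligned reads were counted, and exons of many ribosomal protein genes have processed copies elsewhere in the genome. Their part in these ratios was not tested.

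**Figure D2:**
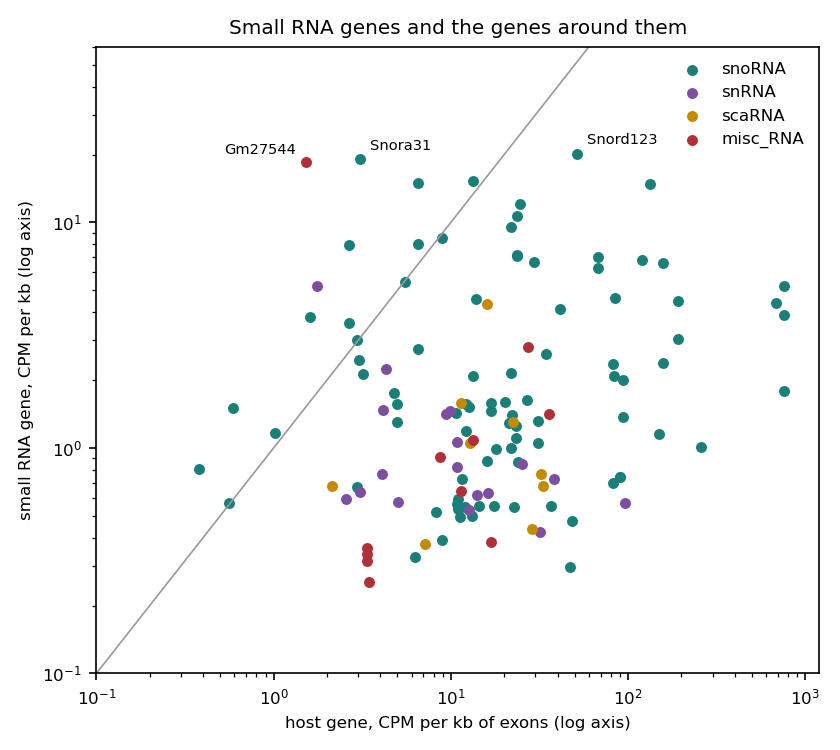
Level per kb of 127 small RNA genes (y axis, CPM per kb, log axis) against the level per kb of exons of the gene around them (x axis, log axis). Each point is 1 small RNA gene, the line marks equal levels, and 14 points lie above it, with Gm27544 at 18.6 against 1.53 CPM per kb and Snora31 at 19.2 against 3.07.

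Genes sharing a host often differed in level. There were 16 hosts with 2 or more of the small RNA genes, 36 genes in all. The ratio of the highest to the lowest of them per kb had a median of 1.82 and ran from 1.13 to 21.8, and the order of the highest and lowest held in 7 of 7 libraries in 8 of the 16 hosts. The widest ratio was that of Snora73b to Snora73a in Rcc1. Snora73a had 159 of its 205 bases on an exon of another gene on its strand and Snora73b had none. Over part or all of both, the annotation also places an exon of Gm17300 on the other strand, and whether counting used the strand is not given in the sources used here. In Rpl5, Gm22270 was 7.29 times Gm26387 per kb, at 15.2 against 2.09 CPM per kb, and higher in 7 of 7 libraries. Neither lies on an exon of another gene of its strand. In Rpl17, Gm23301 and Gm26202, both C/D snoRNAs, were at 15.0 and 8.06 CPM per kb and Snord58b at 2.76.

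Correlations between the genes across the 7 libraries were centred on 0. Over the 10440 pairs of the 145 genes, the median Pearson correlation of log2(CPM + 0.05) was 0.00, and over the 1770 pairs of the 60 genes with more counts it was 0.01, against 0.00 over all pairs of the 18779 genes tested. A correlation of at least 0.8 was found in 1.63% of the pairs of the 145 genes and in 3.25% of the pairs of all genes tested. The 24 pairs in the same host had a median of 0.12, with no pair at 0.8 or above. The median correlation of a gene with its host was 0.12 over 127 genes, of which 72 were positive. The 7 points of each correlation share depth and composition, and many counts were small. Gm27544 followed Rmst, a long noncoding RNA, at r = 0.96, with Rmst at 12.7, 9.93 and 6.59 CPM in CNTR and 11.9, 12.3, 18.3 and 8.25 CPM in PAMH F3. Of its 155 bases, 50 lie on an Rmst exon.

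For most genes the spread between libraries was close to that of counting alone. The spread is given as the chi-square of the 7 counts about their expected shares of the libraries divided by 6, which is near 1 when only counting varies. Its median was 1.33 over the 145 genes and 1.17 over the 121 with a summed count under 200, against 1.66 for 2097 protein-coding genes with a summed count of at least 20 and under 200. It was 2.12 for the 24 genes with 200 counts or more, against 3.95 for 2531 protein-coding genes in the same range of counts. Counts were not matched inside these ranges, and the measure rises with the count where genes vary beyond counting. These medians therefore do not show that the small RNA genes vary less than protein-coding genes of equal depth. Rn7sk stood far from the rest at 132, followed by Gm27544 at 13.8, Snora57 at 10.9 and Gm22009 at 8.93.

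**Figure D3:**
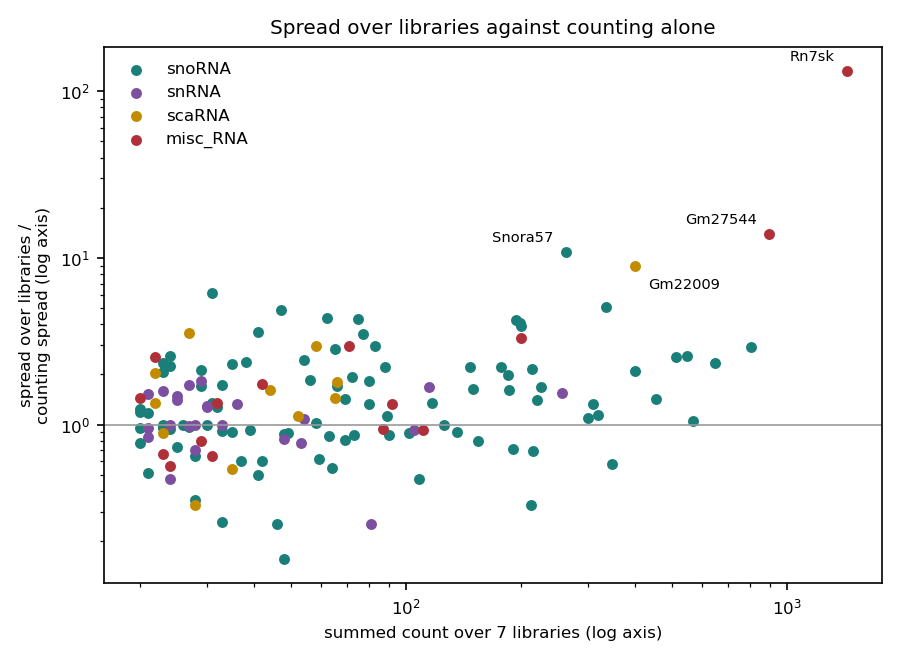
Spread of each of the 145 genes over the 7 libraries, as chi-square over 6 (y axis, log axis), against its summed count (x axis, log axis), coloured by gene type. The horizontal line at 1 is the spread of counting alone. Rn7sk lies at 132, above Gm27544 at 13.8, and 39 genes lie above 2.

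Relative to counting error, Rn7sk separated the libraries by more than any other of the 145 genes, and not by group alone. It had 127, 549 and 271 counts in CNTR and 106, 136, 125 and 120 in PAMH F3, or 3.83, 16.47 and 8.39 CPM against 3.00, 4.10, 3.49 and 3.76 CPM. CNTR 2 and CNTR 3 were high and CNTR 1 lay within the PAMH F3 range, so the groups overlapped. The means were 9.56 ± 6.40 CPM in CNTR (SD, n = 3) and 3.59 ± 0.462 CPM in PAMH F3 (SD, n = 4), with p = 0.114 in the two-sided exact permutation test. In edgeR's quasi-likelihood test the log2 fold change of PAMH F3 against CNTR was -0.78 (SE 0.191), with an unadjusted p of 0.00441 and an adjusted p of 0.522. DESeq2's Wald test with these covariates gave a log2 fold change of -0.78, an unadjusted p of 0.00056 and an adjusted p of 0.071. In edgeR without surrogate variables the log2 fold change was -1.41 (SE 0.399, quasi-likelihood unadjusted p = 0.00624, adjusted p = 0.994). The smallest adjusted p of any gene in that fit was 0.851. DESeq2's Wald test without surrogate variables gave -1.41, an unadjusted p of 0.000185 and an adjusted p of 0.171. Of the 2 surrogate variables in the edgeR and DESeq2 fits that used them, 1 split CNTR as Rn7sk did. It was at -0.617 in CNTR 1 and at 0.533 and 0.504 in CNTR 2 and CNTR 3. The p values of those fits are therefore not independent of the split within CNTR. Without CNTR 1 it was -1.74 with an edgeR adjusted p of 0.0353, in a fit that called 37 of 19094 genes (0.194%).

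Other measures moved with CNTR 2. The slope of log2 CPM on GC content over the genes tested was 0.32 per 10 percentage points in CNTR 2, and from -0.13 to 0.05 in the other libraries, with -0.02 in CNTR 3. Rn7sk has 58.0% GC. The summed level of 67 histone genes, many of which make messages without a poly(A) tail, was 142 CPM in CNTR 2 and 80.3 to 111 CPM in the others, with 111 CPM in CNTR 3. Their part in the Rn7sk levels was not tested. Of the 331-base gene, 68.1% of the 50-base stretches recur in another annotated gene of these types, so that reads lying wholly in them do not align to 1 place. Of the 11 genes with a spread above 4, 8 were highest in CNTR 2, with GC content from 39.4% to 64.1%. CNTR 2 was the highest library for 25.0% of the 60 tested small RNA genes and for 25.1% of all genes tested. The 11 were picked for their spread, so these shares are no like background for them. Besides Rn7sk and Snord104 the 8 included Snora57 (62.2% GC), with 46, 78 and 32 counts in CNTR against 22, 31, 21 and 33 in PAMH F3. Snora21 (46.7% GC) had 15 of its 31 counts in CNTR 2, Gm23969 (43.2% GC) 19 of 47 and Snora78 (64.1% GC) 22 of 62. These 3 genes, with Snord34 and Snord58b, which were also highest in CNTR 2, are named after their values were seen. The other 3 of the 11 were highest elsewhere, Gm27544 (40.6% GC) in PAMH F3 3, Gm22009 (39.4% GC) in CNTR 1 and Gm23547 (56.5% GC) in PAMH F3 4. The summed level of the 145 genes was 89.2 CPM in CNTR 2 and 68.1 to 73.3 CPM in the others, and without Rn7sk it was 72.7 CPM in CNTR 2 and 64.6 to 67.6 CPM in the others.

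**Figure D4:**
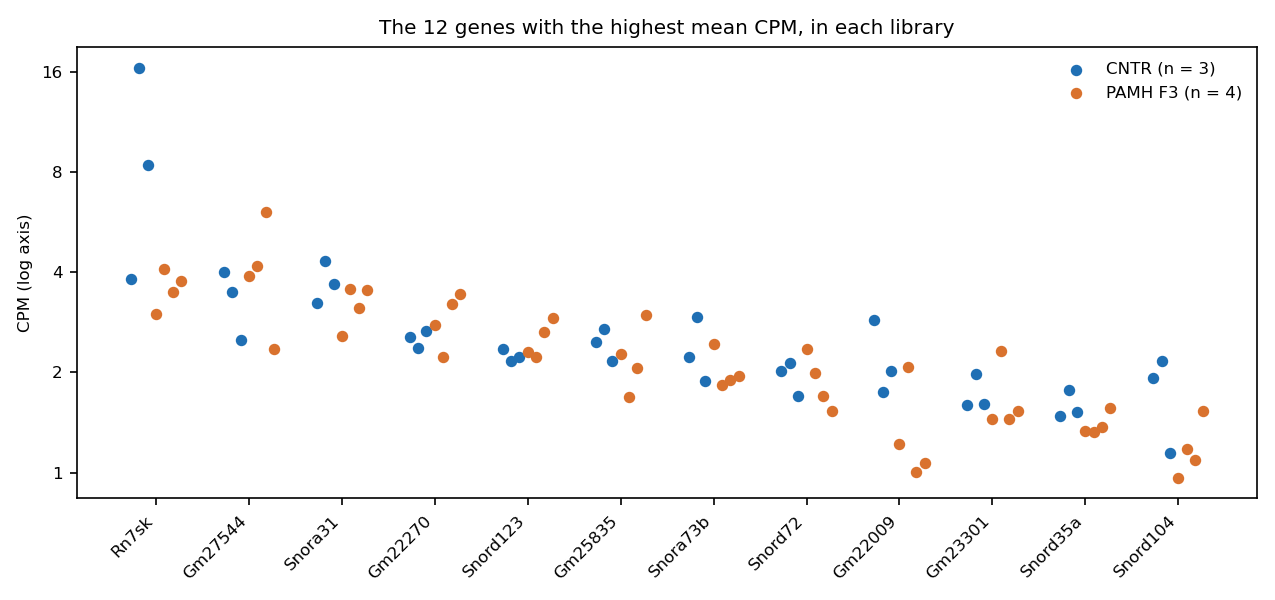
CPM (y axis, log axis) of the 12 genes with the highest mean level in each of 3 CNTR (blue) and 4 PAMH F3 (orange) libraries, one point per library in the order of the replicate numbers. Rn7sk reaches 16.47 and 8.39 CPM in CNTR 2 and CNTR 3 and lies between 3.00 and 4.10 CPM in the other 5 libraries, while most other genes stay within a narrow range.

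The comparison of PAMH F3 with CNTR ovaries asks whether these RNAs differ in the third generation after prenatal AMH. The test was edgeR's quasi-likelihood F test with 2 surrogate variables, covariates that svaseq drew from the counts for variation outside the groups, on the 18779 genes kept by the count filter (filterByExpr). Of the 145 genes, 60 passed that filter and 85 did not. At an adjusted p of at most 0.05 edgeR called 0 of the 60, and 0% of all genes tested (0 of 18779). The smallest adjusted p among the 60 was 0.522. With these surrogate variables, the Wald test of DESeq2 gave an adjusted p to 16 of the small RNA genes, the rest being left without one by its own filter, and called 0 of them, where it called 0.66% of all genes given one (102 of 15447). The smallest of the 16 was that of Rn7sk, 0.071. An unadjusted p under 0.05 in edgeR's test was found for 3 of the 60, all lower in PAMH F3, where the background in that direction was 3.74% of all genes tested, and for 0 genes in the other direction, where the background was 3.89%. Log2 fold changes of the 60 ran from -1.20 to 0.80, with 30 above and 30 below 0, a median of 0.01 and a median SE of 0.31. Over all genes tested the median was 0.01 and the median SE 0.12.

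**Figure D5:**
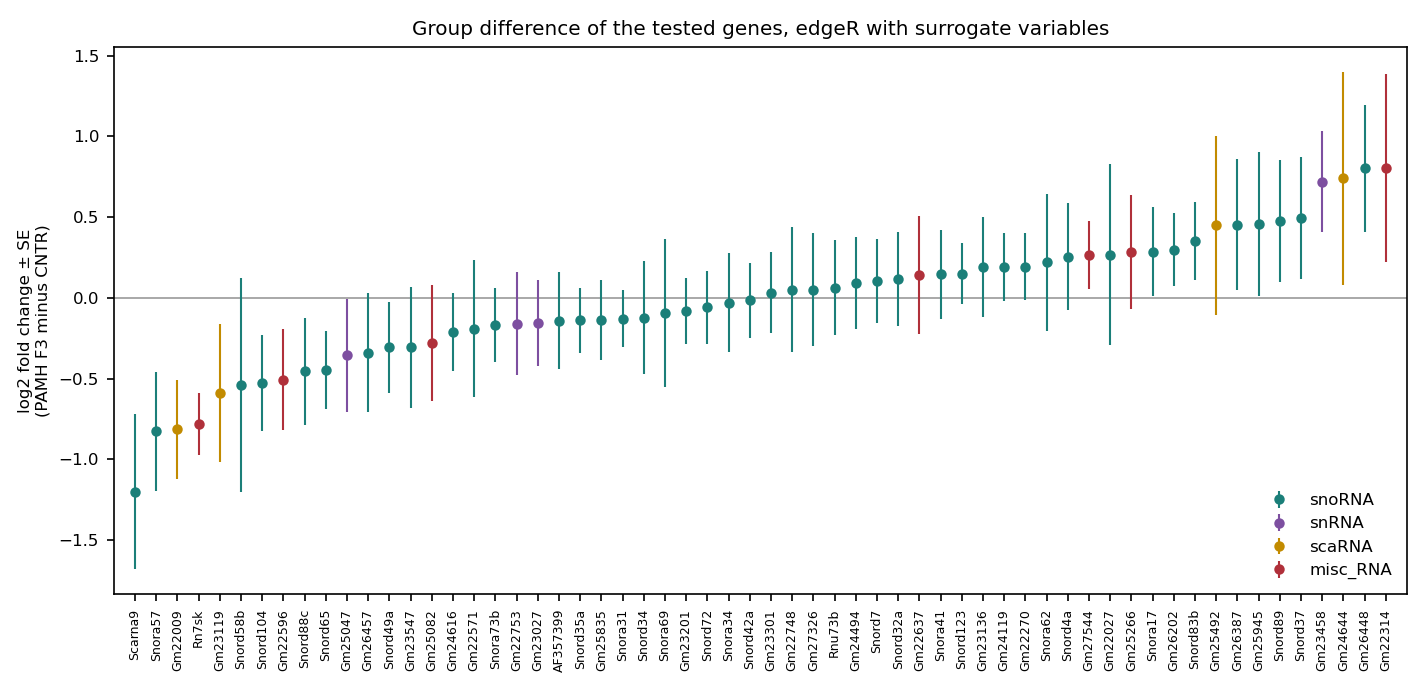
Log2 fold change of PAMH F3 against CNTR with its SE (y axis) for the 60 tested genes in order of size (x axis), from edgeR's test with 2 surrogate variables, coloured by gene type. The values run from -1.20 for Scarna9 to 0.80 for Gm22314, and none passed at an adjusted p of 0.05.

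The 3 genes were Rn7sk, Gm22009 and Scarna9. Gm22009, a scaRNA gene in an intron of Kpna4, an importin gene, was at 2.86, 1.74 and 2.01 CPM in CNTR and at 1.22, 2.08, 1.00 and 1.07 CPM in PAMH F3. PAMH F3 2 lay among the CNTR values and the other 3 PAMH F3 libraries lay below them. The log2 fold change was -0.81 (SE 0.305, edgeR unadjusted p = 0.0315, adjusted p = 0.628), and the exact permutation test gave a two-sided p of 0.171. Without CNTR 1 the log2 fold change was -0.46 (edgeR unadjusted p = 0.242), and without PAMH F3 2 it was -1.18. Kpna4 itself was at 142 ± 13.6 CPM in CNTR and 146 ± 7.10 CPM in PAMH F3.

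Scarna9 was at 0.542, 0.480 and 0.495 CPM in CNTR and at 0.340, 0.211, 0.0558 and 0.376 CPM in PAMH F3, from 18, 16 and 16 counts against 12, 7, 2 and 12. All PAMH F3 libraries lay below all CNTR libraries. The log2 fold change was -1.20 (SE 0.480, edgeR unadjusted p = 0.0401, adjusted p = 0.640), and the two-sided exact permutation p was 0.0571. Without PAMH F3 3 the log2 fold change was -0.79 (edgeR unadjusted p = 0.0758). Its host Cep295, a centriole protein gene, was at 46.6 ± 6.99 CPM in CNTR and 49.3 ± 3.83 CPM in PAMH F3.

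In 4 of the 145 genes the CNTR and PAMH F3 ranges were apart. Gm23458, Gm24144 and Gm26493 were higher in PAMH F3 and Scarna9 was lower. Among the 60 tested genes 1 was higher, Gm23458 (1.67%, where the background was 1.85% of all genes tested), and 1 was lower, Scarna9 (1.67%, background 2.4%). Gm23458 was at 0.392, 0.240 and 0.402 CPM in CNTR and at 0.538, 0.723, 0.530 and 0.596 CPM in PAMH F3, from 8 to 13 counts against 19 to 24. Its log2 fold change was 0.72 (SE 0.314, edgeR unadjusted p = 0.0544, adjusted p = 0.659) and its two-sided exact permutation p was 0.0571. Gm24144 had 1, 1 and 3 counts in CNTR and 6, 5, 4 and 4 in PAMH F3, and Gm26493, a snoRNA gene in Cnot1, had 2, 0 and 1 against 5, 8, 3 and 5. Both were under the filter, and the share over all genes was taken only for genes that passed it. The 4 of 145 therefore have no background beside them.

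All 145 genes could be fitted without the filter. An unadjusted p under 0.05 in edgeR's test was then found for 8 of them, 2 higher and 6 lower in PAMH F3. Over both directions this was near the background of 5.76% of 33791 genes in that fit, with 994 higher and 953 lower. The smallest adjusted p of the 145 was 0.243. When the surrogate variables were left out, 4 of the 60 reached an unadjusted p under 0.05, 1 higher and 3 lower. The background was 3.89% of the genes tested, with 220 higher and 510 lower.

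Genes were given from 9 lists, which hold the proteins that work with these RNAs and the noncoding host genes of snoRNAs. Of their 95 tested genes, 0 passed at an adjusted p of 0.05 in edgeR's test, where 0 of all 18779 genes tested passed. In the same test 15 had an unadjusted p under 0.05, 5 higher (5.26%, background 3.89%) and 10 lower in PAMH F3 (10.5%, background 3.74%). The 19 noncoding host genes gave 4 of the 5 higher and 3 of the 10 lower, so these shares are not those of the proteins alone. Among 4 box C/D proteins 1 was lower, Fbl (fibrillarin, the methyltransferase), at 19.3 ± 4.36 CPM in CNTR and 13.9 ± 2.31 CPM in PAMH F3 (adjusted p = 0.522). Among 4 box H/ACA proteins 2 were lower, Nhp2 (67.4 ± 17.3 against 52.4 ± 7.15 CPM) and Nop10 (74.3 ± 8.12 against 63.8 ± 4.86 CPM). Of 11 RNase P and RNase MRP proteins 3 were lower, Rpp21, Rpp25 and Pop4, and of 7 signal recognition particle proteins 1 was lower, Srp14, which binds 7SL RNA (112 ± 5.64 against 95.0 ± 5.76 CPM). None of the 7 genes of the 7SK particle and P-TEFb, of the 7 Ro, La, vault and telomerase proteins or of the 20 spliceosomal snRNP proteins had an unadjusted p under 0.05. Of 16 genes of the nuclear exosome, oligoadenylation and 3′ trimming 1 was higher, Zcchc7 (113 ± 12.6 against 130 ± 4.93 CPM). Of 19 noncoding host genes of snoRNAs 4 were higher and 3 lower, with Snhg8 at 40.6 ± 15.9 CPM in CNTR and 26.2 ± 6.11 CPM in PAMH F3 and Meg3 at 117 ± 41.5 and 138 ± 19.8 CPM. These groups are given by their counts and values, with no call past the adjusted threshold.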

How the data were processed

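The authors made libraries from total ovarian RNA with a stranded poly(A) kit and sequenced single reads of 50 bases. Per the study's methods and the submitters' processing notes, bcl2fastq 2.17.1.14, STAR 2.5.3a (mm10) and HTSeq 0.6.1p1 in union mode on uniquely aligned reads were used. The deposited values are raw read counts per gene, 1 table per library, with no normalization, and the summary lines for unassigned reads were left out of library sizes and tests.

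Of 55487 identifiers, 55394 matched GENCODE M21. The genes and lists were chosen with earlier results of these data known. CPM used TMM factors over all gene rows (edgeR 4.0.16, R 4.3.3). The test was edgeR's quasi-likelihood F test with 2 surrogate variables (sva 3.50.0), filterByExpr with a minimum count of 10 and Benjamini-Hochberg adjustment over 18779 genes. It left 3 residual degrees of freedom. DESeq2 1.42.0 was an alternative. Both tests were checked on simulated counts. Single genes were compared by exact permutation (scipy 1.17.1). Alignments of sequences used biopython 1.88.

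Named genes were the 12 highest by CPM, the 3 highest of each type, those at an unadjusted p under 0.05, well-known small RNAs, the 3 on each side of the threshold, the 6 most variable with a mean count of 20 or more, and host genes, with up to 3 genes per list. Alternatives changed the surrogate variables (0, 1 or 3), normalization, tool, robust fitting, filter, replicate block, threshold of the rule, overlapping genes and libraries. The depth of 20 to 1434 counts a gene limits precision, and counting limits cover counting error only.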

Additional observations from a re-analysis of the deposited data

Results flagged for a closer look

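In the PAMH F3 group of 4 libraries, 31 levels (those of the named genes and the 4 type sums) were looked at for a library far from the others. Gm23301, a C/D snoRNA gene in Rpl17, was at 2.32 CPM in PAMH F3 2, while the next highest PAMH F3 library was at 1.54 CPM. The gap was 0.896 of the range of the group, above Dixon's critical value at the 95% level. Chance alone marks about 1 in 20 groups, and 1 of 31 was marked. The CNTR group of 3 libraries was not looked at in this way.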

How the results depend on the processing

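The count of 0 genes called at an adjusted p of 0.05 held under each alternative with all libraries (other numbers of surrogate variables, median-ratio size factors, DESeq2, robust fitting, other filters, genes off other exons), with DESeq2 giving an adjusted p to 16 of the genes. Over all genes, edgeR with all libraries also called 0, except for 8 of 33791 without a filter. DESeq2 called 102 over all genes with the surrogate variables and 8 without them. Leaving out a library gave 0 to 1, the 1 being Rn7sk without CNTR 1 (log2 fold change -1.74), and 0 in each case without surrogate variables. Over all genes these fits called 37 of 19094 without CNTR 1, 31 of 18570 without PAMH F3 1 and 0 otherwise. With no surrogate variables they called 2 of 18570 without PAMH F3 1 and 0 otherwise. The count of 3 of 60 genes at an unadjusted p under 0.05 (1432 of all 18779 tested) became 6 of 60 with 1 surrogate variable (1134 of 18779). It was 5 of 60 with 3 (1663 of 18779) and 8 of 145 without a filter (1947 of 33791). When a library was left out it ran from 1 of 55 without PAMH F3 3 (1169 of all 18535) to 8 of 66 without CNTR 1 (3256 of 19094). With no surrogate variables as well, it ran from 2 of 64 without CNTR 2 (530 of 19079) to 7 of 65 without CNTR 3 (1223 of 19135). Single genes were not looked at in the fits that left out both a library and the surrogate variables. In each other alternative that gave them a value, Rn7sk, Gm22009, Scarna9, Gm23458 and Gm27544 kept their direction. The log2 fold changes lay between -1.74 and -0.54 for Rn7sk, -1.18 and -0.46 for Gm22009 and -1.62 and -0.79 for Scarna9. They lay between 0.55 and 0.94 for Gm23458 and 0.07 and 0.50 for Gm27544. Gm22009 lost its unadjusted p under 0.05 with the block and when CNTR 1, CNTR 3, PAMH F3 1, PAMH F3 3 or PAMH F3 4 was left out, and Scarna9 without surrogate variables, in DESeq2 and when PAMH F3 2 or PAMH F3 3 was left out.

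The labels state no pairing of libraries by replicate number. Same-numbered libraries deviated together at r = 0.11, 0.12 and -0.30, and the other pairs of a CNTR and a PAMH F3 library ran from -0.31 to 0.35. So few libraries cannot settle whether the numbers pair them. With the replicate block and no surrogate variables, 0 of 60 genes were called, and 0 of all 18779 tested. In that fit 3 of the 60 had an unadjusted p under 0.05, against 442 of all 18779 tested.

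The log2 ratio of the misc_RNA sums (-0.57) became -0.98 without genes on exons of other genes and 0.13 without Rn7sk. That of the scaRNA sums (-0.34) became -0.72 at a summed count of at least 100 and -0.0063 without Gm22009. When a library was left out the ratios ran from -0.79 to -0.22 for misc_RNA, -0.46 to -0.24 for scaRNA, 0.08 to 0.20 for snRNA and -0.12 to -0.00 for snoRNA. The 4 of 145 genes without overlap became 1 of 41 at a summed count of at least 100. When a library was left out they became 8 (without PAMH F3 1) to 22 (without CNTR 3) of 145, as fewer libraries overlap less often. The share over all genes was not taken in these settings, so these counts do not set the 145 genes apart. The median pairwise correlation of 0.00 became 0.0042 at a summed count of at least 10, 0.0191 at 100 and 0.0089 for the 60 tested genes, and ran from -0.0051 to 0.0025 when a library was left out.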
